A study of Arabidopsis thaliana with 12 samples.

Results

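Plastids make part of their own proteins on ribosomes of bacterial type. The RNA of these ribosomes and some of their proteins are encoded in the plastid genome, while the other ribosomal proteins are encoded in the nucleus, made in the cytosol and imported. Plastid ribosomes make core subunits of the photosystems, the ATP synthase and the large subunit of Rubisco, so plants that lose an essential ribosomal protein of the plastid commonly fail to green or arrest as embryos. The genes described here are 5 nuclear genes of plastid ribosomal proteins, each matched by 1 feature that the platform annotation gives to that gene alone, out of 3439 features on the array and 692 features with a single annotated gene. They comprise 3 genes of the large subunit, AT3G54210 (a protein of the L17 family), AT5G65220 (L29 family) and AT1G29070 (L34 family), and 2 genes of the small subunit, AT3G13120 (S10 family) and AT1G64510 (S6 family). No feature with several annotated genes held any of them.

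Total RNA was measured on 12 arrays, 6 of the Arabidopsis thaliana mutant laf6 and 6 of wild type (WT). Both groups were dark adapted and of the Landsberg ecotype, and the labels describe laf6 as lacking a transporter, atABC1. The labels name no tissue, plant age, mutant allele or length of darkness, and leave it unsaid whether each array had its own plants, so the p-values rest on differences among arrays that may be technical. The values are intensities on a scale from 0 to 100 with no absolute unit, compared after quantile normalization between arrays unless stated otherwise.

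The array medians lay between 0.178 and 0.202 in laf6 and between 0.218 and 0.289 in WT. The 20 brightest features of an array held 39.3 to 41.6% of its summed intensity in laf6 and 29.7 to 31.6% in WT. Features listed at 0 numbered 491 to 674 on a laf6 array and 447 to 540 on a WT array. Because medians and bright shares moved with the group, the scaling between arrays bears on every difference, and values as deposited are given beside the normalized ones. The highest value of every array was 100 after rounding, so values as deposited may already hold a scaling or a ceiling. Arrays of the same group with adjacent replicate numbers (1 and 2, 3 and 4, 5 and 6) were more alike than others (mean Spearman correlation over features 0.874 against 0.851 in laf6, and 0.939 against 0.920 in WT), and whether they are repeats of 1 sample is not stated. Of the markers listed for leaf mesophyll, 3 of 7 were measured, the photosystem I gene AT5G64040 (PSAN), the antenna gene AT2G34420 (LHB1B2) and the phosphoribulokinase gene AT1G32060 (PRK). All had a signal on the 12 arrays, and none of 13 markers of root, guard cell, phloem, pollen and seed was measured. The summed normalized intensity of these mesophyll markers was 56.6 to 68.5 over laf6 arrays and 18.6 to 31.9 over WT arrays. Most of the sum was AT2G34420, with means of 45.6 in laf6 and 19.8 in WT. The means were 13.6 and 4.15 for AT5G64040 and 1.33 and 0.590 for AT1G32060, in the same order. The sum moved in the same direction as the genes that rose below, and its part in their change was not tested. In RNA of mixed tissue, fewer cells of a type and less RNA per cell cannot be told apart.

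Of the 5 genes, the large-subunit genes AT3G54210 and AT5G65220 rose in laf6, none fell, and 3 did not pass the test (limma, Benjamini-Hochberg adjustment over all 3439 features, threshold 0.05). Over all features 12.4% were called higher in laf6 and 13.8% lower, 26.2% in all. The genes that rose were the ones with a signal on all 12 arrays, and the other 3 were listed at 0 on at least 1 array. The median log2 difference was 0.07 over the 5 genes and -0.02 over all features. The median of the 5 is that of AT1G29070, which was listed at 0 on 6 of 12 arrays, and it stood at -0.60 with the values as deposited, where all features had a median of -0.45.

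AT3G54210 belongs to the L17 family, whose bacterial counterpart lies near the exit of the tunnel through which the growing protein leaves the large subunit. Its deposited intensity was 0.516, 0.495, 0.509, 0.451, 0.592 and 0.545 on laf6 arrays 1 to 6, against 0.441, 0.308, 0.503, 0.331, 0.370 and 0.315 on WT arrays 1 to 6. As deposited, 4 of 6 laf6 arrays lay above every WT array and the groups overlapped, because WT replicate 3 lay above laf6 replicates 2 and 4. After quantile normalization the intensity was 0.614 ± 0.0717 in laf6 and 0.332 ± 0.0623 in WT (SD, n = 6 each). The normalized groups did not overlap, with laf6 arrays from 0.508 to 0.726 and WT arrays from 0.250 to 0.393. Over all features, 8.52% had every laf6 array above every WT array after normalization and 9.33% every laf6 array below, while as deposited the shares were 4.97% above and 17.1% below.

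The log2 difference of AT3G54210 was 0.90 ± 0.14 (SE; 95% interval 0.60 to 1.20; limma adjusted p = 0.000433), a ratio of group means of 1.85. As deposited the ratio of means was 1.37 and the log2 difference 0.47 (limma adjusted p = 0.0178), while the median of all features stood at -0.45, so that relative to this median the gene stood at 0.93. As deposited the gene was higher in laf6 in 6 of 6 same-numbered pairs of arrays. After normalization the same count follows from the groups not overlapping and adds nothing to it. It passed the threshold under all 27 alternatives run, with log2 differences from 0.47 to 0.96 and limma adjusted p from 0.000230 to 0.0178. The alternatives reuse the same arrays and several leave the estimate at 0.90 unchanged, so they are not independent checks.

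AT5G65220 encodes a protein of the L29 family, which in bacteria also sits at the tunnel exit beside the docking site of factors that receive the growing protein. Its deposited intensity was 2.45, 2.73, 3.39, 3.16, 3.19 and 2.93 on laf6 arrays 1 to 6, against 2.81, 2.76, 2.56, 2.30, 2.15 and 1.91 on WT arrays 1 to 6. The laf6 replicates 1 and 2 lay below WT replicates 1 and 2, while the other 4 laf6 arrays lay above every WT array. After normalization the intensity was 3.22 ± 0.311 in laf6 and 2.18 ± 0.223 in WT (SD, n = 6 each), and the groups did not overlap (2.79 to 3.61 in laf6, 1.90 to 2.40 in WT).

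The log2 difference of AT5G65220 was 0.57 ± 0.09 (SE; 95% interval 0.36 to 0.77; limma adjusted p = 0.000803), a ratio of group means of 1.48. As deposited the ratio of means was 1.23 and the log2 difference 0.31, which missed the threshold (limma adjusted p = 0.0731; range over 27 alternatives 0.000189 to 0.0731). Relative to the median of all features, the value as deposited was 0.76. The gene was higher in laf6 in 4 of 6 same-numbered pairs as deposited. After normalization it was higher in 6 of 6, which follows from the groups not overlapping. The call as deposited was therefore 1 gene of 5 higher in laf6, where 7.33% of all features were higher.

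**Figure D1:**
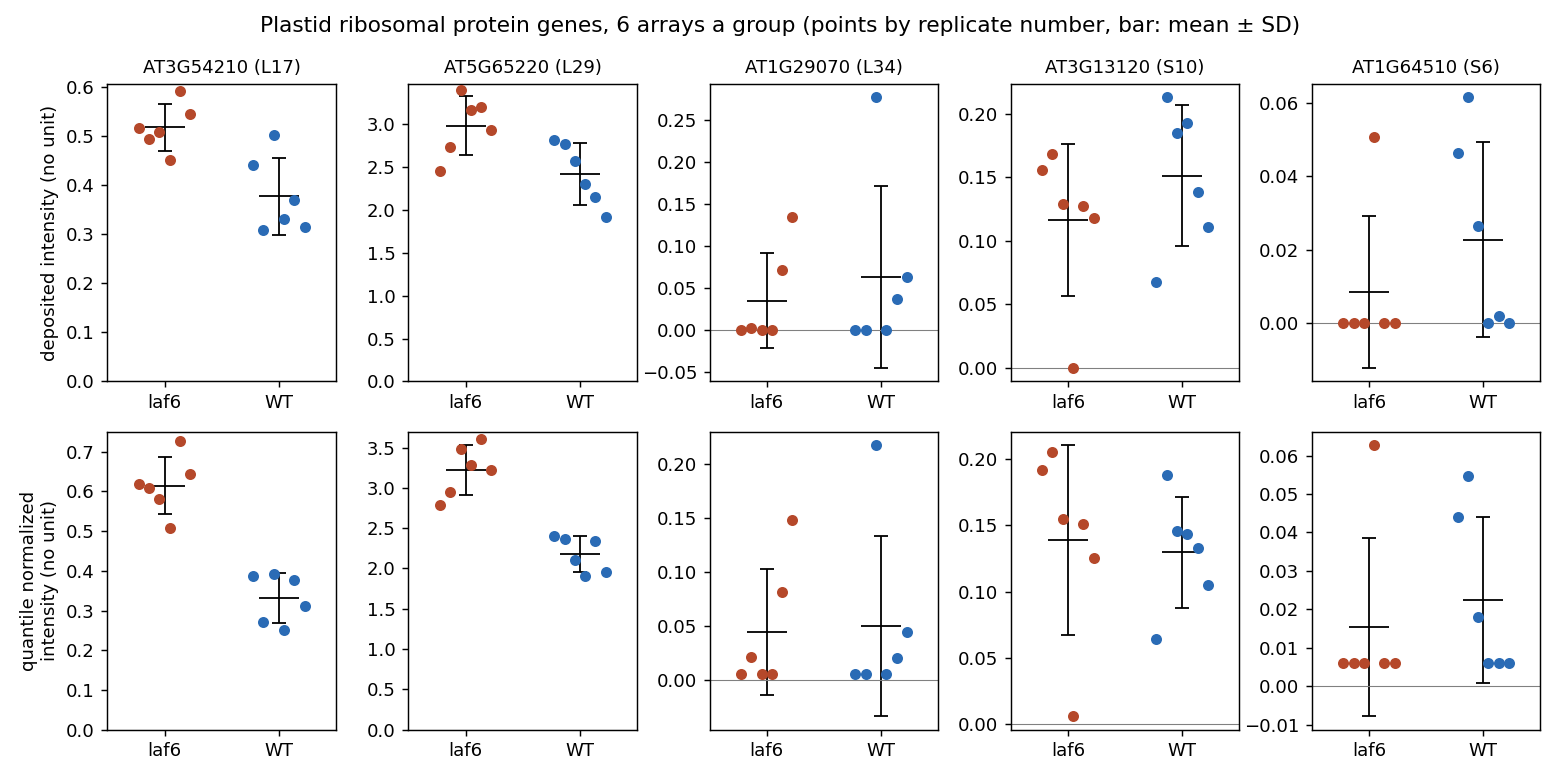
Intensity of the 5 genes on each array (y axis, no unit; points ordered by replicate number; bars, mean ± SD, n = 6), as deposited in the upper row and after quantile normalization with the floor in the lower row, laf6 left and WT right. In the lower row the laf6 points of AT3G54210 (0.508 to 0.726) and AT5G65220 (2.79 to 3.61) lie above all WT points, while the other genes have points at 0 or at the floor and their groups overlap.

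The pairs of adjacent replicate numbers gave different sizes for the 2 genes. For AT3G54210 the normalized log2 difference was 0.92 in replicates 1 and 2, 0.79 in replicates 3 and 4 and 0.997 in replicates 5 and 6. For AT5G65220 it was 0.27, 0.76 and 0.67 in the same order. AT5G65220 was thus closest to WT in replicates 1 and 2, where the difference as deposited was -0.11, against 0.43 in replicates 3 and 4 and 0.59 in replicates 5 and 6. The deposited differences of AT3G54210 were 0.46, 0.23 and 0.74, above 0 in each. With adjacent numbers averaged to 3 samples a group, both genes passed the threshold after normalization, AT5G65220 only narrowly. The limma adjusted p was 0.0141 for AT3G54210 and 0.0483 for AT5G65220, against a threshold of 0.05. Each such pair holds 2 arrays of a group, and the differences between the pairs were not tested.

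**Figure D2:**
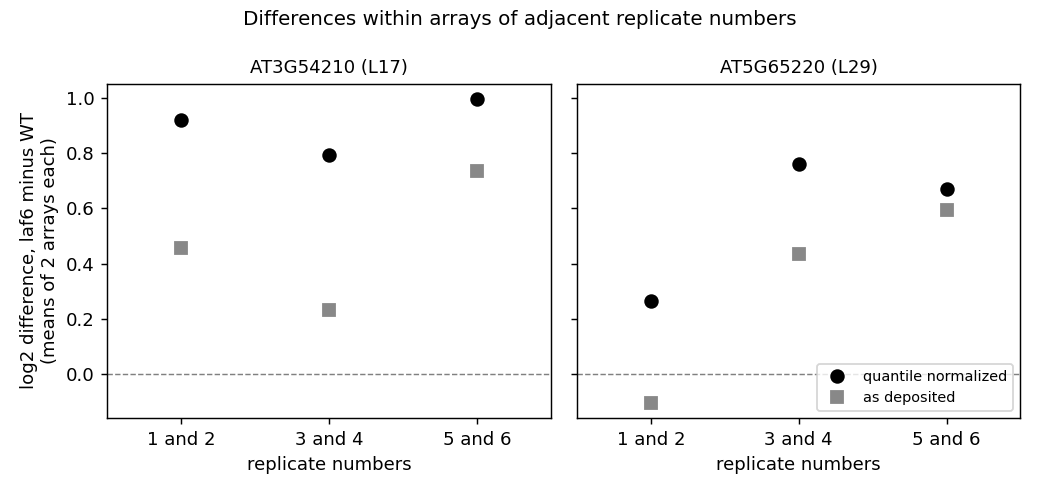
Log2 difference, laf6 minus WT (y axis), between the means of 2 arrays each, by replicate numbers (x axis), after quantile normalization (circles) and as deposited (squares). The circles lie above 0 in each pair of numbers for both genes, and the square of AT5G65220 in replicates 1 and 2 lies at -0.11.

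The spread between arrays of a group was below that of a typical feature for AT5G65220 in both groups and for AT3G54210 in laf6, and close to it for AT3G54210 in WT. The SD of the log2 normalized values was 0.17 in laf6 and 0.28 in WT for AT3G54210, and 0.14 in laf6 and 0.15 in WT for AT5G65220. The median SD over the 2192 features above 0 on all 12 arrays was 0.41 in laf6 and 0.27 in WT.

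AT1G29070 encodes a protein of the L34 family, a small basic protein of the large subunit in bacteria. Its deposited intensity was 0, 0.0022, 0, 0, 0.0713 and 0.135 on laf6 arrays 1 to 6, against 0, 0, 0.277, 0, 0.0374 and 0.0629 on WT arrays 1 to 6. It was above 0 on 3 arrays of each group, and the groups overlapped, with WT replicate 3 above every laf6 array. The fitted log2 difference of 0.07 ± 1.16 (SE; limma adjusted p = 0.997) depends on the floor given to values of 0, its 95% interval ran from -2.48 to 2.61, and it turned below 0 under each of the 4 other scalings.

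AT3G13120 encodes a protein of the S10 family, which lies in the head of the small subunit and in Escherichia coli also takes part in transcription antitermination. Its deposited intensity was 0.156, 0.168, 0.129, 0, 0.128 and 0.118 on laf6 arrays 1 to 6, against 0.0675, 0.213, 0.185, 0.193, 0.139 and 0.111 on WT arrays 1 to 6. The laf6 replicate 4 was listed at 0, and the other 5 laf6 arrays lay within the WT range. After normalization 2 laf6 arrays lay above every WT array and laf6 replicate 4 below all. The log2 difference was -0.39 ± 0.80 (SE; limma adjusted p = 0.777; 95% interval -2.15 to 1.36). Its direction rested on laf6 replicate 4: without that array it was 0.40 (limma adjusted p = 0.313, the lowest of the 27 alternatives run). Its size also depends on the floor, at -0.015 with the 5th percentile and -0.012 with an offset in its place, and it was -1.03 without replicates 1 and 2 of both groups.

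AT1G64510 encodes a protein of the S6 family, which in bacteria pairs with protein S18 on the platform of the small subunit. Its deposited intensity was 0.0508 on laf6 replicate 4 and 0 on the other 5 laf6 arrays, against 0.0463, 0.0616, 0.0265, 0, 0.0020 and 0 on WT arrays 1 to 6. It was above 0 on 1 of 6 laf6 arrays and on 4 of 6 WT arrays, and the groups overlapped. The fitted log2 difference was -0.71 ± 0.80 (SE; limma adjusted p = 0.566) and depends on the floor. It was -1.32 without laf6 replicate 4 (limma adjusted p = 0.190), -0.40 without WT replicate 1, -0.33 without WT replicate 2 and 0.40 without replicates 1 and 2 of both groups.

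For the 3 genes that did not pass, these intervals reach past the changes measured for AT3G54210 and AT5G65220, but their width depends on the floor. With the floor at the 5th percentile they ran from -1.30 to 1.40 for AT1G29070, from -1.04 to 1.01 for AT3G13120 and from -0.61 to 0.47 for AT1G64510. The 2 small-subunit genes are both among them, and the data give no test of large against small subunit.

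**Figure D3:**
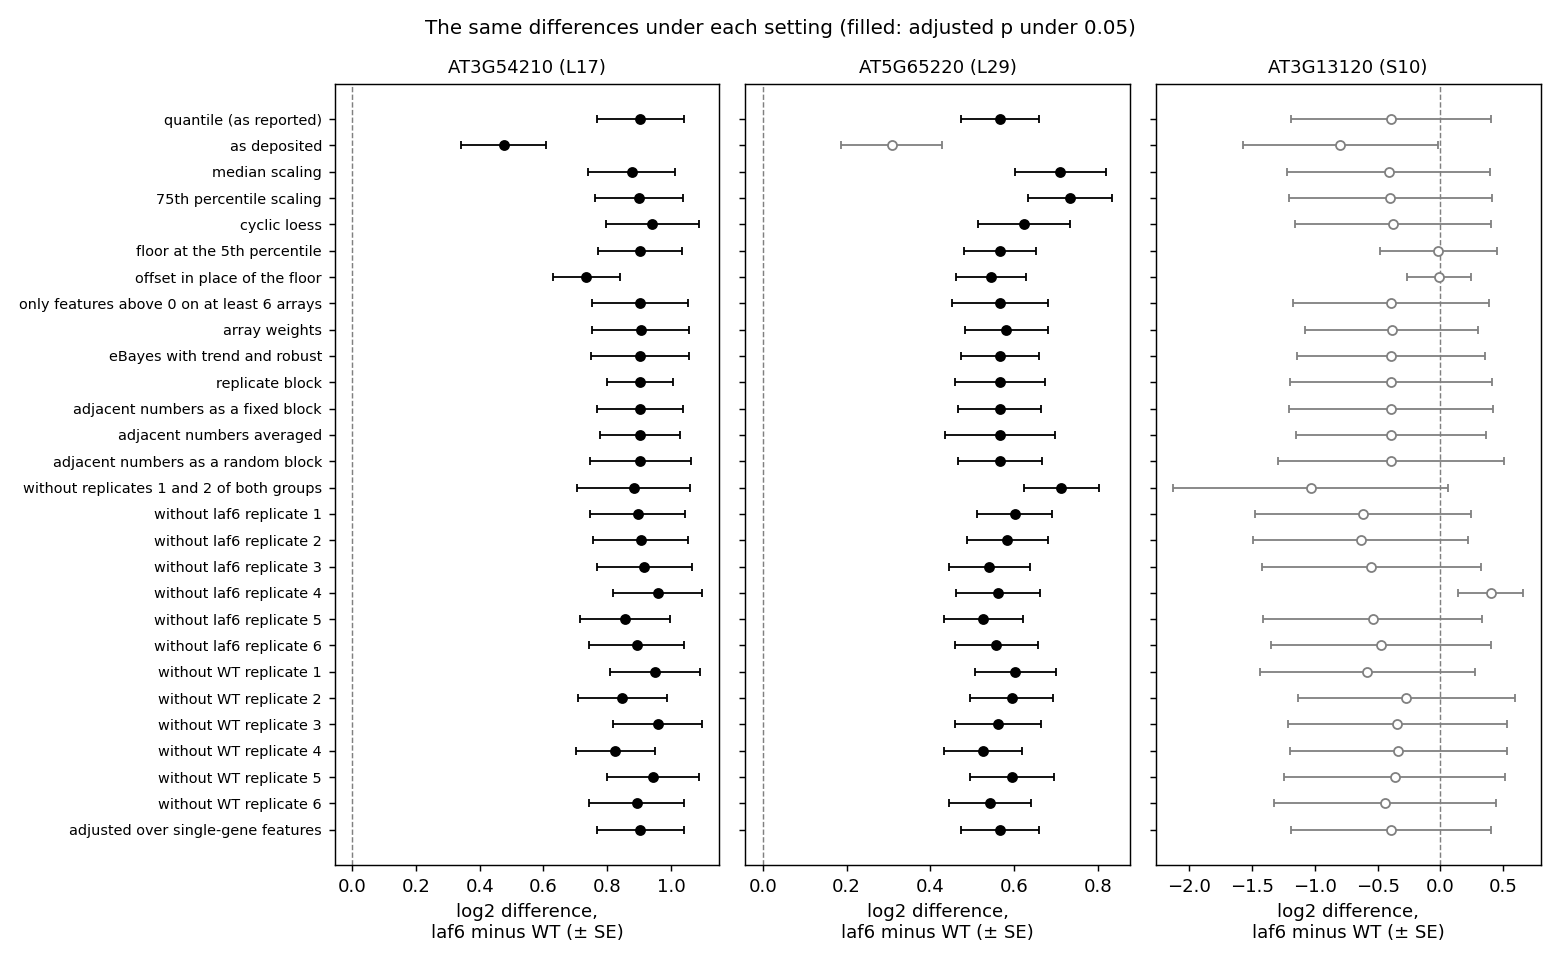
Log2 difference, laf6 minus WT (x axis, ± SE), of the genes AT3G54210, AT5G65220 and AT3G13120 under the reported setting and each alternative (y axis); filled points have an adjusted p under 0.05. AT3G54210 stays between 0.47 and 0.96 and filled throughout, AT5G65220 is open in the row of values as deposited (0.31), and AT3G13120 crosses to 0.40 without laf6 replicate 4.

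Whether the genes changed by unequal amounts was asked with ratios between 2 genes on the same array. Where both genes have a signal, such a ratio does not depend on a scale factor of that array. Values of 0 were raised to the 1st percentile of the positive deposited values, so ratios holding one depend on that floor and on the scale. For AT3G54210 over AT5G65220, the only pair with a signal on every array, the log2 ratio of deposited intensities was -2.25, -2.46, -2.74, -2.81, -2.43 and -2.42 on laf6 arrays 1 to 6, against -2.67, -3.17, -2.35, -2.80, -2.54 and -2.60 on WT arrays 1 to 6. These ranges overlapped, with means of -2.52 ± 0.21 in laf6 and -2.69 ± 0.28 in WT (SD, n = 6 each). The difference of 0.17 had a 95% interval of -0.14 to 0.49, from inverting the exact permutation test, and did not pass (two-sided exact permutation p = 0.281, adjusted p = 0.563 over 10 pairs). With quantile normalized values, which stretch bright and dim parts of an array differently, it was 0.34 (exact permutation p = 0.0216, adjusted p = 0.216). The level of such a ratio sets 2 different features against each other and has no meaning of its own; the difference between groups does.

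Of the 10 pairs, 0 passed after adjustment and 0 had an unadjusted p under 0.05 in the exact permutation test (p from 0.0844 to 0.959, where the design allows 0.00216; adjusted p from 0.346 to 0.959). The differences, laf6 minus WT, ran from 0.12 to 1.40, and 9 of the pairs hold a gene listed at 0 on some array. The ratio of AT3G54210 over AT3G13120 averaged 2.67 ± 1.80 in laf6 and 1.40 ± 0.76 in WT, a difference of 1.27 (SD, n = 6 each; exact permutation p = 0.0844, adjusted p = 0.346). Without laf6 replicate 4 this difference was 0.54, and with the floor at the 5th percentile it was 0.89. The ratio of AT5G65220 over AT3G13120 averaged 5.19 ± 1.95 in laf6 and 4.08 ± 0.66 in WT, a difference of 1.10 (exact permutation p = 0.182, adjusted p = 0.455). This difference was 0.32 without laf6 replicate 4 and 0.72 with the floor at the 5th percentile. Without replicates 1 and 2 of both groups these differences were 1.88 and 1.91 and the groups of 4 arrays did not overlap (exact permutation p = 0.0286 for each, the smallest this number of arrays allows; adjusted p = 0.143). Their sizes include laf6 replicate 4, where AT3G13120 was raised to the floor and the ratios were 6.31 and 9.12. On laf6 replicates 3, 5 and 6 the ratios were 1.98 to 2.21 and 4.64 to 4.72.

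**Figure D4:**
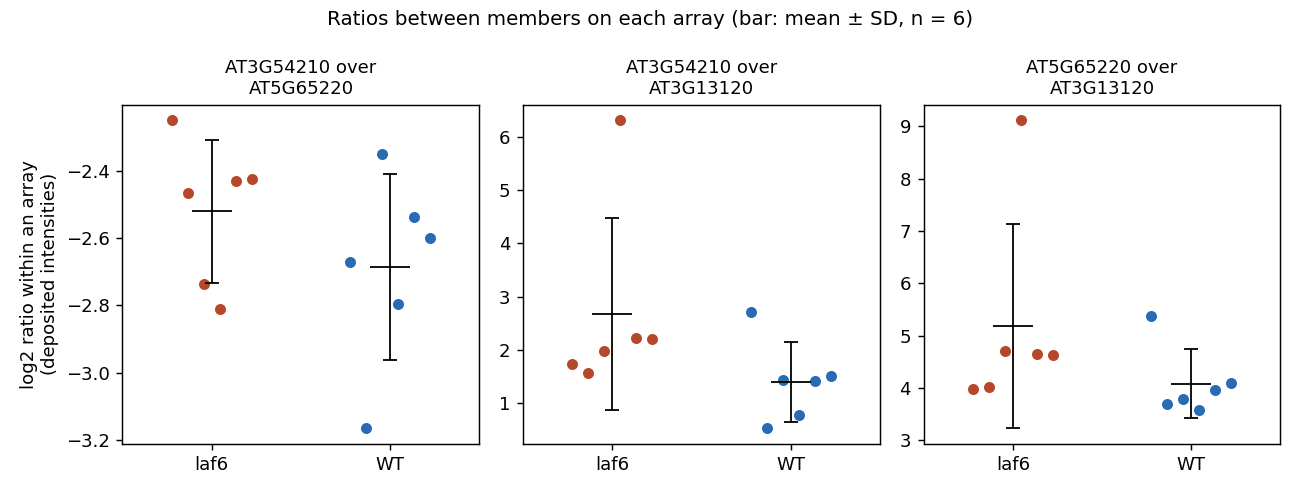
Log2 ratio of the deposited intensities of 2 genes on the same array (y axis; points ordered by replicate number; bars, mean ± SD, n = 6), laf6 left and WT right. The groups overlap in each panel, and the high laf6 point in the panels with AT3G13120 is replicate 4, where that gene was listed at 0 and raised to the floor.

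Of 41 listed nuclear genes of plastid ribosomal proteins, 6 were measured by a feature of their own, the 5 above and AT4G01310 of the L5 family, whose bacterial counterpart binds the 5S RNA of the large subunit. AT4G01310 had a normalized intensity of 0.407 ± 0.107 in laf6 and 0.360 ± 0.0501 in WT (SD, n = 6 each). Its log2 difference of 0.14 ± 0.18 (SE) did not pass (limma adjusted p = 0.621) and was -0.28 as deposited. The laf6 arrays spread on both sides of the WT range, 2 above it and 1 below. Counted over the 6 genes, 2 rose and 0 fell, where 12.4% of all features were called higher and 13.8% lower.

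None of 9 listed translation factors of the plastid had a feature of its own. Of 13 listed genes of plastid ribosome assembly and ribosomal RNA maturation, 2 were measured, of which 1 rose (12.4% of all features were called higher). AT3G12930, of the Iojap family of ribosome-binding proteins, had a normalized intensity of 0.519, 0.224, 0.622, 0.433, 0.318 and 0.402 on laf6 arrays 1 to 6, against 0.254, 0.265, 0.243, 0.244, 0.142 and 0.266 on WT arrays 1 to 6. The laf6 replicate 2 lay within the WT range and the other 5 laf6 arrays above it. Its log2 difference was 0.79 ± 0.25 (SE; limma adjusted p = 0.0374). This call was marginal: it was lost without any 1 of 10 of the 12 arrays, all but laf6 replicates 2 and 5 (log2 differences 0.65 to 0.83, limma adjusted p up to 0.0778). It was also lost with adjacent numbers averaged (limma adjusted p = 0.0790), with adjacent numbers as a random block (limma adjusted p = 0.0753) and as deposited (0.36, limma adjusted p = 0.355, the highest of its alternatives).

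AT5G46420, of the RimM family, which in bacteria helps to mature the small subunit, was listed at 0 on 1 laf6 array and 4 WT arrays. Its normalized intensity ran from the floor to 0.469 in laf6 and from the floor to 0.0935 in WT, with replicate 4 the highest in both groups. The log2 difference was 1.97 ± 1.09 (SE; limma adjusted p = 0.228) and depends on the floor. With the replicate number as a block the adjusted p was 0.0383 (range over 27 alternatives 0.0383 to 0.526).

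**Figure D5:**
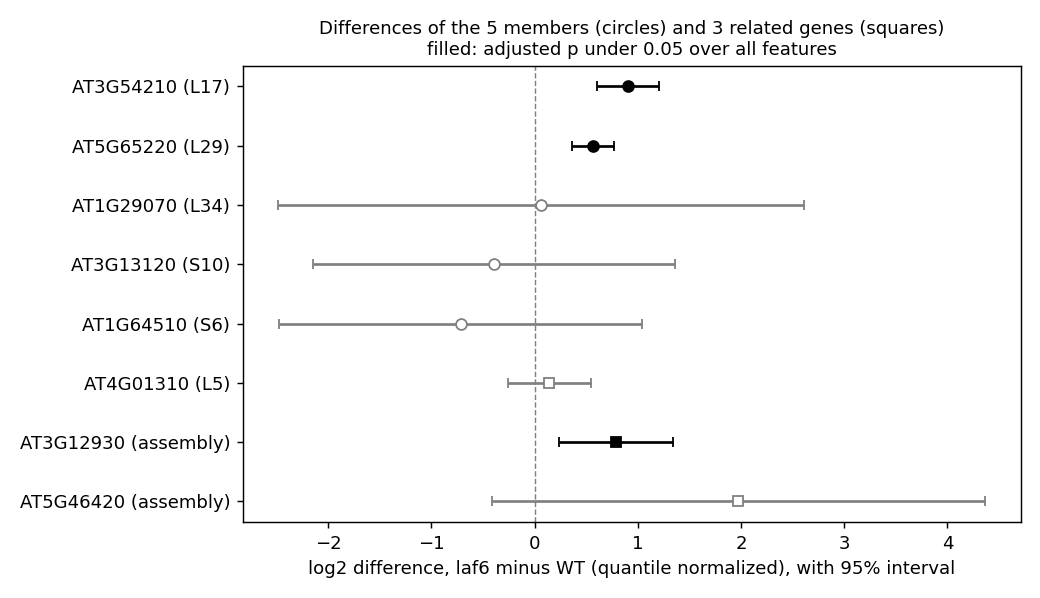
Log2 difference, laf6 minus WT, with 95% interval (x axis) for the 5 genes (circles), the L5 family gene AT4G01310 and the assembly genes AT3G12930 and AT5G46420 (squares); filled symbols have an adjusted p under 0.05 over all features. The intervals of AT3G54210 (0.60 to 1.20) and AT5G65220 (0.36 to 0.77) are narrow, and those of the genes listed at 0 on some arrays span several log2 units.

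The genes most like each member were taken as the single-gene features with the smallest root mean square difference of log2 normalized values over the 12 arrays, after centring each gene on its own mean, among 448 single-gene features above 0 on all arrays. Nearest to AT3G54210 were AT3G09080 (0.19) and AT3G26630 (0.21), against a median of 0.74 over all candidates. AT3G09080 had a normalized intensity of 4.31 ± 0.460 in laf6 and 2.01 ± 0.214 in WT, and AT3G26630 had 31.2 ± 0.908 in laf6 and 16.6 ± 1.05 in WT (SD, n = 6 each). Nearest to AT5G65220 were AT5G52810 (0.16; 4.69 ± 0.147 in laf6 and 2.84 ± 0.273 in WT) and AT2G38550 (0.18; 1.69 ± 0.164 in laf6 and 1.29 ± 0.0795 in WT), against a median of 0.61. These genes share the direction of the member's difference, which the measure of likeness selects for. Log2 differences were 1.10 for AT3G09080 and 0.91 for AT3G26630, beside 0.90 for AT3G54210. They were 0.73 for AT5G52810 and 0.38 for AT2G38550, beside 0.57 for AT5G65220. The other members have arrays at the floor, while every candidate had a signal on all arrays, so larger distances were built in for them. The nearest lay at 0.65 and 0.68 for AT3G13120 (AT3G11150 and AT4G33480; median 1.42). They lay at 1.09 and 1.11 for AT1G64510 (AT2G18920 and AT2G02590; median 1.42) and at 1.61 for both of AT1G29070 (AT3G15490 and AT4G38670; median 1.99).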

How the data were processed

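The table deposited by the authors holds 1 intensity per feature and array on a linear scale. Neither the labels nor the file name a scanner, a background correction or a scaling. Since every array had the same highest value, arrays may have been scaled to their brightest features or clipped before deposit. Values called as deposited are therefore not known to be unscaled. The highest array median was 1.62 times the lowest, so arrays were quantile normalized, values were raised to the 1st percentile of the positive normalized values (0.00597, or -7.39 as log2) and log2 was taken. Groups were compared with limma 3.58.1 (lmFit, eBayes; R 4.3.3), laf6 minus WT, over all 3439 features, each kept separate. P-values are two-sided with Benjamini-Hochberg adjustment. Ratios between members were tested by exact permutation over 924 splits of the arrays. The fit was tested on simulated data. The number of arrays limits the precision, and the table gives no detection calls.

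Gene names come from the platform annotation, updated through RefSeq (TAIR10.1), in which 690 of 692 single-gene features matched. No single-gene annotation held the words "ribosomal protein". Positions are left out because the array design names no genome build. The members, lists and tests were chosen with earlier results of these data known. Named are all members, all measured genes of the 4 lists, the 2 most similar single-gene features per member, and the measured leaf markers. Alternatives covered scaling, floor, dim features, weights, blocks and arrays left out.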

Additional observations from a re-analysis of the deposited data

Results flagged for a closer look

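Among 42 groups of 6 arrays, of the genes named above, 7 held 1 array far from the other 5. A chance rate of about 1 in 20 groups would hold for independent values without a floor. Some of these groups hold values at the floor, and some genes were named for their likeness to another, so the count cannot be set against that rate. Values below are log2 of the normalized intensity, with the floor at -7.39. The laf6 replicate 4 was the array set apart in 4 of these groups. It stood at -7.39, the floor, for AT3G13120, where the other laf6 arrays lay from -3.00 to -2.28. It stood at -4.26 for AT3G11150 (others -1.80 to -1.06) and at -5.12 for AT4G33480 (others -2.14 to -1.20), both named because their pattern was close to that of AT3G13120. For AT1G64510 it was high, at -3.997, with the other laf6 arrays at the floor, so that a signal of any size is set apart. WT replicate 5 was low for AT3G12930 (-2.81, others -2.04 to -1.91). WT replicate 4 was high for AT5G46420 (-3.42, others -7.39 to -6.45). The laf6 replicate 5 was low for AT5G52810 (2.14, others 2.23 to 2.26), a gap that is small in size.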

How the results depend on the processing

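The count of 2 members higher and 0 lower held under 26 of 27 alternatives and was 1 higher and 0 lower as deposited. Leaving out any 1 array gave 2 higher and 0 lower. Over all features, 428 were higher and 473 lower, against 252 and 903 as deposited, 256 lower with adjacent numbers averaged, 71 and 101 with adjustment over single-gene features only, where fewer features are tested, and 387 to 421 higher and 425 to 476 lower without 1 array. AT5G65220 was 0.31 as deposited. The difference of AT1G29070 turned to -0.60 as deposited, -0.47 with median and with 75th percentile scaling, -0.37 with cyclic loess, -0.0024 with an offset, and -0.47 without replicates 1 and 2, and ran from -0.52 to 0.77 without 1 array. AT3G13120 ran from -0.64 to 0.40 without 1 array, AT1G64510 ran from -1.32 to -0.33 without 1 array and turned to 0.40 without replicates 1 and 2, and AT4G01310 to -0.28 as deposited. No pair ratio passed under 17 alternatives, and that of AT3G54210 over AT5G65220 was -0.030 without replicates 1 and 2 and 0.34 with quantile normalized values. Before adjustment the exact test cannot go below 0.10 with 3 samples a group, 0.0286 with 4 arrays a group or 0.0312 with flipped signs of paired differences, so these 3 settings say little about stability. The causes of these moves were not tested.

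Same-numbered arrays of the 2 groups deviated together only weakly (correlations 0.0966 to 0.184, 1 of them under 0.1), yet each laf6 array matched its own number best. These values do not settle whether the numbers pair the arrays. The unpaired fit was kept as the reported setting, and the replicate block was run as an alternative. With the replicate block 414 features were higher and 458 lower, and members stayed at 2 higher and 0 lower. The limma adjusted p of AT5G46420 was 0.0383 with the block and 0.228 without it.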
